A study of Homo sapiens with 6 samples.

Results

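The CXC chemokines are 10 genes of the human count table: CXCL1, CXCL2, CXCL3, CXCL5, CXCL6, CXCL8, CXCL10, CXCL11, CXCL12 and CXCL16. They were taken by gene symbol from the 31831 genes listed, and all 10 were found. The question addressed here was how the level of each changed in HK-2, a long-established human cell line derived from the proximal tubule of the kidney, when hnRNP-F, an RNA-binding protein, was overexpressed in high glucose. Both groups were infected with lentivirus and kept in 30 mM glucose for 72 h. HG-NC cells (n = 3 libraries, titled Ctrl) carried the empty vector and HG-OE cells (n = 3 libraries, titled HK2-OEHNRNPF) carried the hnRNP-F vector, which the methods name as LV5. The labels do not say whether the libraries came from separate cultures or whether an infected line was 1 clone. The methods speak of parallel wells for each group, and the study calls the libraries biological replicates. If the wells came from 1 culture, p-values measure only the spread between these libraries, which may then be technical. Cells in normal glucose and the mannitol libraries were not analysed here.

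CXC chemokines are small secreted proteins that bind receptors coupled to G proteins and guide migrating leukocytes. CXCL1, CXCL2, CXCL3, CXCL5, CXCL6 and CXCL8 attract neutrophils through CXCR1 and CXCR2, CXCL10 and CXCL11 are induced by interferon and attract T cells through CXCR3, CXCL12 is the ligand of CXCR4, and CXCL16 is a membrane-bound ligand of CXCR6 that proteases can shed. Injured or inflamed tubule epithelium is a known source of several of them, and the NF-κB pathway is a known inducer of the neutrophil-attracting group.

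Total counts were 25507595 to 29444841 read pairs per library, and where no pair was counted a level of up to 3 counts remains possible, which is 0.102 to 0.118 counts scaled to library size (CPM). Such limits and all intervals on counts cover counting error only. HNRNPF itself had 304, 318 and 311 CPM in HG-NC and 430, 451 and 422 CPM in HG-OE replicates 1, 2 and 3, with no overlap between the groups. The level was 1.40 times higher in HG-OE. Whether these counts include RNA made from the vector is not stated. Among the labelled cell type's markers, the epithelial keratin KRT8 had 7438 counts or more in every library. Of 7 proximal tubule markers, 4 passed the filter on low counts. Over the 6 libraries SLC5A2 had 73 to 127 counts, GGT1 20 to 42, SLC34A1 12 to 23 and CUBN 10 to 16. The other 3 (LRP2, AQP1 and ANPEP) did not pass. The receptor LRP2 had 0 counts in every library except HG-OE replicate 3, which had 17. HG-OE replicate 3 also stood apart from the other 5 libraries by ALB, the liver's albumin gene, with 4359 counts against 0 to 78, by APOB with 1583 against 0 to 53 and by CDH1, the epithelial cadherin, with 384 against 2 to 10. Values without this library are given for the CXC chemokines that still passed the filter on low counts. For the listed genes other than cell type markers, they are given where the call changed. They are not given for the cell type markers, some of whose calls also changed.

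Of the 10 genes, 8 lie on chromosome 4 of GRCh38. CXCL8 (73740519 to 73743716), CXCL6, CXCL1, CXCL5, CXCL3 and CXCL2 follow each other within 359 kb, the first 3 on the plus strand and the last 3 on the minus strand. CXCL10 and CXCL11 lie 1.92 Mb further on, with 10.2 kb between them. CXCL12 lies on chromosome 10 (44370165 to 44386493, minus strand) and CXCL16 on chromosome 17 (4733533 to 4739928, minus strand).

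The 250 bases before the start of CXCL8, CXCL2, CXCL3 and CXCL5 are shown because these are the 4 genes whose change passed the test of differential expression, 3 downward and 1 upward. They are the RefSeq sequences on GRCh38.p14, written 5′ to 3′ on the strand of the gene. Capitals mark the letters GGNNNTTCC, a form of the NF-κB motif, and TGANTCA, a form of the AP-1 motif.
CXCL8: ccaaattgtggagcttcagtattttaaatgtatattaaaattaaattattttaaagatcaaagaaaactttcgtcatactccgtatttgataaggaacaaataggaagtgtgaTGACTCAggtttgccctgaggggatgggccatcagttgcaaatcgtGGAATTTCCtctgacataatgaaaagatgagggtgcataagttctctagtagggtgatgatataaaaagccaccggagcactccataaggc
CXCL2: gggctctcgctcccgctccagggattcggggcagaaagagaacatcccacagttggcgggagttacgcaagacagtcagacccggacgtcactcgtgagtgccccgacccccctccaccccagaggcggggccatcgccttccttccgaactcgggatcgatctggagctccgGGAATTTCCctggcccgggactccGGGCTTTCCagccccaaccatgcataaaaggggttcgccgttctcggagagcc
CXCL3: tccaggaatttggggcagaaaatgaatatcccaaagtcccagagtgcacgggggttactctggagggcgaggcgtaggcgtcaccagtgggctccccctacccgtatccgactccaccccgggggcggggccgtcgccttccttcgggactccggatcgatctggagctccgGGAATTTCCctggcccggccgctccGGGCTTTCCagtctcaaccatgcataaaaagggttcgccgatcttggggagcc
CXCL5: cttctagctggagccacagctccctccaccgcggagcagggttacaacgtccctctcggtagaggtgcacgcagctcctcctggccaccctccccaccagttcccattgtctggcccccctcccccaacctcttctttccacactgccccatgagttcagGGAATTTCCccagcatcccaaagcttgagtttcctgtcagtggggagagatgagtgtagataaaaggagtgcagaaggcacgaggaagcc
Their positions are chr4:73740319-73740568 (plus strand) for CXCL8, chr4:74099196-74099445 (minus strand) for CXCL2, chr4:74038690-74038939 (minus strand) for CXCL3 and chr4:73998678-73998927 (minus strand) for CXCL5. RefSeq starts CXCL8 slightly downstream of the GENCODE start given above. It also starts CXCL3 downstream of the GENCODE start, which is 74038807. Both strands were searched, and GGAATTTCC, which is 1 case of GGNNNTTCC, stood once in each of the 4 windows, beginning 91, 77, 78 and 90 bases before the start of CXCL8, CXCL2, CXCL3 and CXCL5. Of the 10 genes, 9 were matched in the RefSeq table (all but CXCL16), and GGAATTTCC was present in 8 of these 9, namely all 8 genes on chromosome 4. Over all 35116 promoter windows of that length, 0.413% held GGAATTTCC and 17.1% held GGNNNTTCC. CXCL2 and CXCL3 shared a further GGNNNTTCC, beginning 53 bases before the start, and 78.0% of the bases of their windows, whereas CXCL5 was closest to CXCL6 (85.6%). TGANTCA, which 6.57% of all windows held, stood in the windows of CXCL8 and CXCL11. GAAANNGAA, part of the interferon response motif, was present in 6.88% of all windows and in those of CXCL2, CXCL3 and CXCL10. The letters are a description and were not tested as binding sites, and their part in the changes of these genes was not tested.

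The RNAs themselves differed in AU-rich letters of the 3′ untranslated region, which are known to bind factors that shorten the life of an mRNA. In the canonical GENCODE transcripts, the nonamer TTATTTATT occurred 5 times in CXCL2, 3 times in CXCL1 and once in each of CXCL3 and CXCL8. It occurred in none of the other 6 genes, CXCL5 among them. Over 19538 protein-coding transcripts with such a region, 8.44% held the nonamer. The shorter ATTTA, which 67.5% of these transcripts held, was present in all 10 genes, with 14.0 copies per kb in CXCL2, 10.4 in CXCL3, 7.19 in CXCL8 and 5.51 in CXCL5.

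A gene was called when edgeR's quasi-likelihood test gave an adjusted p under 0.05 (Benjamini-Hochberg over all 17142 genes tested) together with a 2-fold change or more. Of the 10 CXC chemokines, 6 passed edgeR's filter on low counts and were tested, and CXCL1, CXCL6, CXCL11 and CXCL12 did not pass. CXCL8, CXCL2 and CXCL3 were called lower in HG-OE, where 2.13% of all genes tested were, and none was called higher, where 3.69% were. At the adjusted p alone, 3 of the 6 were lower and 1 (CXCL5) was higher, and the share of all genes tested was 25.9% in the lower and also 25.9% in the higher direction. In 4 of the 6 the libraries of the 2 groups did not overlap, which held for 59.0% of all genes tested.

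**Figure D1:**
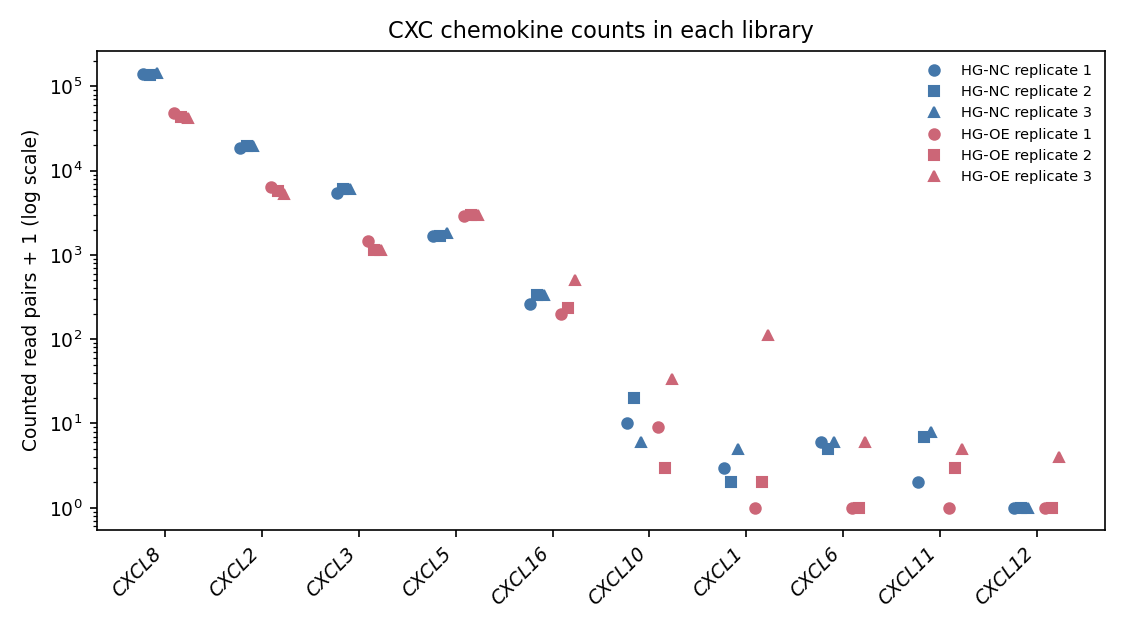
Counted read pairs plus 1 (log axis) of each CXC chemokine in the 3 HG-NC (blue) and 3 HG-OE (red) libraries, with 1 symbol per library. CXCL8, CXCL2 and CXCL3 lie lower and CXCL5 higher in all 3 HG-OE libraries, while CXCL1 reaches 112 counts in HG-OE replicate 3 alone.

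CXCL8, the main human neutrophil attractant, was the most abundant of these RNAs in every library. It had 5519, 5089 and 5220.3 CPM in HG-NC replicates 1, 2 and 3 and 1649.7, 1500.1 and 1448 CPM in HG-OE replicates 1, 2 and 3. The lowest HG-NC library was thus more than 3 times the highest HG-OE library. The level was 3.44 times higher in HG-NC than in HG-OE. The log2 fold change was -1.78 (95% interval -1.88 to -1.68, adjusted p = 1.59e-11, edgeR). CXCL8 alone took 0.510% to 0.551% of all counted pairs in HG-NC and 0.144% to 0.165% in HG-OE. By counts it was the 7th most abundant gene in each HG-NC library and came 31st, 42nd and 51st in HG-OE replicates 1, 2 and 3.

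CXCL2, a ligand of CXCR2, moved with CXCL8. Its levels were 721, 726 and 709 CPM in HG-NC and 221, 197 and 181 CPM in HG-OE replicates 1, 2 and 3, and the groups did not overlap. The log2 fold change was -1.85 (95% interval -1.97 to -1.72, adjusted p = 9.47e-11, edgeR), or 3.60 times higher in HG-NC. Within a library, CXCL2 had 0.136 ± 0.00608 counts per count of CXCL8 in HG-NC. In HG-OE the ratio was 0.130 ± 0.00448 (each a mean ± SD over 3 libraries). These ratios overlapped between the groups (exact two-sided permutation test, p = 0.300, adjusted p = 0.300 over 5 ratios).

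CXCL3, the third of the genes that fell and also a CXCR2 ligand, had the largest change. It had 212, 222 and 214 CPM in HG-NC and 50.3, 39.1 and 38.6 CPM in HG-OE replicates 1, 2 and 3. The level was 5.06 times higher in HG-NC, a log2 fold change of -2.34 (95% interval -2.51 to -2.17, adjusted p = 1.31e-10, edgeR). Its ratio to CXCL2 was 0.301 ± 0.00562 in HG-NC and 0.213 ± 0.0146 in HG-OE. Every HG-OE ratio lay below every HG-NC ratio (exact permutation test, two-sided, p = 0.1, which is the lowest value possible with 3 libraries a group, adjusted p = 0.125 over 5 ratios).

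CXCL5, which also signals through CXCR2 and lies between CXCL1 and CXCL3, went the other way. It had 65.3, 61.8 and 65.8 CPM in HG-NC and 99.1, 102 and 102 CPM in HG-OE replicates 1, 2 and 3. Each of these 3 libraries exceeded all of HG-NC, and they lay closer together than those of the genes that fell. The rise was 1.57-fold (95% interval 1.48 to 1.68, log2 fold change 0.65, adjusted p = 5.28e-08, edgeR) and so stayed under the 2-fold limit. The ratio of CXCL5 to CXCL8 counts was 5.43 times higher in HG-OE than in HG-NC, at 0.0662 ± 0.00553 against 0.0122 ± 3.89e-04, and the ratio to CXCL2 was 5.71 times higher. Neither ratio overlapped between the groups (exact two-sided permutation test, p = 0.1 for each, adjusted p = 0.125 over 5 ratios). An antisense lncRNA (ENSG00000287037) overlaps 745 bases of CXCL5, and it had 2 to 15 counts in a library.

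Compared per length, as FPKM (fragments scaled to gene length and library size), the order of the 5 most abundant genes changed at 1 place. In HG-NC, CXCL8 (2110.0 ± 85.3 FPKM) was followed by CXCL2 (460.2 ± 4.2), CXCL3 (87.2 ± 2.05), CXCL5 (23.6 ± 0.852) and CXCL16 (3.67 ± 0.335). In HG-OE, CXCL8 (607 ± 44 FPKM) and CXCL2 (126 ± 13.1) again came first, but CXCL5 (36.8 ± 0.522) stood above CXCL3 (17.0 ± 2.74) in all 3 libraries. CXCL16 was at 3.40 ± 1.82 FPKM. The remaining 5 genes were under 1 FPKM on average in both groups (CXCL10 at 0.313 ± 0.199 and 0.370 ± 0.423), and among them CXCL11, CXCL6 and CXCL1 overlapped with each other in HG-NC. In HG-OE the mean of CXCL1 (0.833 ± 1.43 FPKM) stood above those of CXCL10, CXCL11 and CXCL6 through replicate 3 alone. Summed over the 10 genes, the level was 2685 ± 82.0 FPKM in HG-NC and 792 ± 56.6 FPKM in HG-OE. CXCL8 made up 78.6% and 76.6% of this sum, and CXCL5 0.880% and 4.66%. In a bulk library, fewer cells that express a gene and less RNA per cell cannot be told apart.

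**Figure D2:**
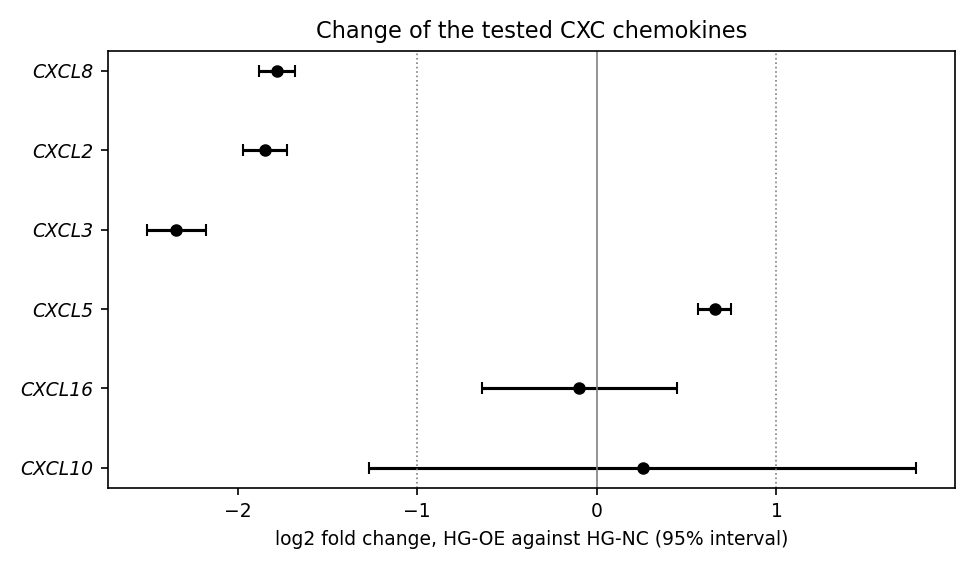
The log2 fold change in HG-OE against HG-NC (points) with its 95% interval from edgeR (bars) for the 6 CXC chemokines tested, dotted lines marking 2-fold. The intervals of CXCL8, CXCL2 and CXCL3 lie below -1, that of CXCL5 runs from 0.56 to 0.75, and those of CXCL16 and CXCL10 include 0.

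CXCL16, the transmembrane ligand of CXCR6, was at a low level, and its HG-OE libraries disagreed. It had 10.3, 12.2 and 11.9 CPM in HG-NC and 6.82, 8.0 and 17.3 CPM in HG-OE replicates 1, 2 and 3. HG-OE replicates 1 and 2 lay below every HG-NC library and replicate 3 above every one. Over all libraries the log2 fold change was -0.10 (95% interval -0.64 to 0.45, adjusted p = 0.769, edgeR). Without HG-OE replicate 3 it was -0.63 (adjusted p = 3.74e-06, edgeR). The gene overlaps the ends of MED11 (76 bases) and ZMYND15 (96 bases) on the other strand, and whether the counting used strand is not stated.

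CXCL10, induced by interferon, had 9, 19 and 5 counts in HG-NC and 8, 2 and 33 counts in HG-OE replicates 1, 2 and 3. The groups overlapped, and the log2 fold change was 0.26 with a wide 95% interval of -1.27 to 1.78 (adjusted p = 0.784, edgeR). Without HG-OE replicate 3 it no longer passed the filter on low counts. CXCL11, its neighbour on chromosome 4, had 1, 6 and 7 counts in HG-NC and 0, 2 and 4 in HG-OE. No difference between the groups was detected in CXCL10, whose HG-OE libraries ranged from 2 to 33 counts, and CXCL11 was not tested.

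CXCL1, a CXCR2 ligand close in sequence to CXCL2 and CXCL3, had 2, 1 and 4 counts in HG-NC and 0, 1 and 112 in HG-OE replicates 1, 2 and 3. The gene was thus at or near 0 in 5 libraries and present in 1, and that library gave 99.1% of its HG-OE counts. The exact 95% Poisson interval of the 112 counts is 92.2 to 135. It had not passed the filter on low counts. With no filter edgeR gave a log2 fold change of 3.8 (adjusted p = 0.00693), which rests on this library, as the groups overlapped (exact two-sided permutation test, p = 1.00). Between the canonical transcripts, 5.63% of the windows of 50 bases in CXCL2 were also in CXCL1 and 5.07% also in CXCL3, and of the windows of 150 bases, the length of a read, 0 were shared.

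CXCL6, a ligand of CXCR1 and CXCR2, had 5, 4 and 5 counts in HG-NC and 0, 0 and 5 in HG-OE replicates 1, 2 and 3. CXCL12 had 0 counts in every library except HG-OE replicate 3, which had 3. Both were at or near the limit of a single library, and no fold is given. The other CXC chemokines listed were also near 0 in the first 5 libraries: CXCL17 had 1 to 11 counts there and 17 in HG-OE replicate 3, CXCL14 had 0 and 10, and CXCL13, PF4 and PPBP had at most 2 in any library.

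Considered singly, the 3 HG-OE libraries gave nearly the same change for the well-counted genes on chromosome 4. The log2 ratio to the HG-NC mean was -1.68, -1.81 and -1.86 for CXCL8 in replicates 1, 2 and 3. For CXCL2 it was -1.70, -1.87 and -1.99, and for CXCL3 -2.10, -2.46 and -2.48. CXCL5 had 0.62, 0.67 and 0.67. HG-OE replicate 1 thus showed the smallest change in each of these 4 genes, and the libraries differed by at most 0.38. Without HG-OE replicate 3, the fitted log2 fold changes were -1.74 for CXCL8, -1.78 for CXCL2, -2.27 for CXCL3 and 0.65 for CXCL5, each again at an adjusted p under 0.05 (edgeR). For CXCL16 the ratios were -0.74, -0.51 and 0.59, and for CXCL1 -1.09, -0.52 and 4.68.

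**Figure D3:**
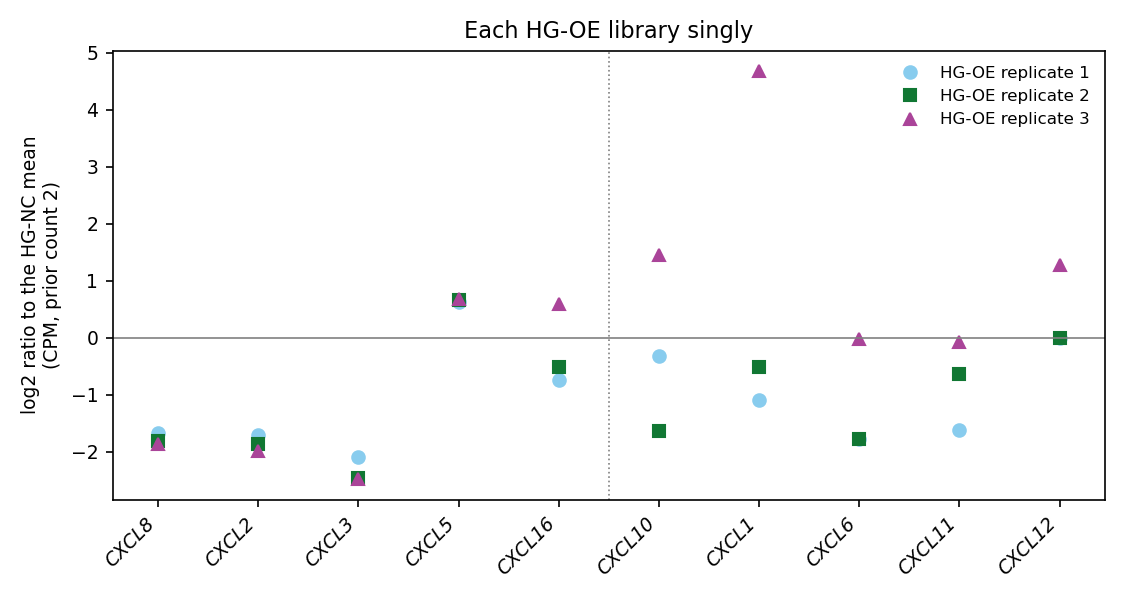
The log2 ratio of each HG-OE library to the mean of the HG-NC libraries (log2 CPM with a prior count of 2) for the 10 CXC chemokines, with 1 symbol per HG-OE library and genes of low counts right of the dotted line. The symbols lie within 0.38 of each other for CXCL8, CXCL2, CXCL3 and CXCL5, and HG-OE replicate 3 lies above the others for CXCL16 and the 5 genes of low counts.

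CXCL16 and the 5 genes of low counts stood highest among the HG-OE libraries in replicate 3. Some cell type markers, such as ALB, COL1A2 and the epithelial KRT8, did so too, while others, such as SERPINA1 and PDGFRB, did not. The CXCL16 counts in replicate 3 were 508 against 431 in the other 2 HG-OE libraries together. For CXCL10 they were 33 against 10 and for CXCL1 112 against 1. Per counted pair, this is 2.33 times (exact 95% interval 2.05 to 2.66), 6.52 times (3.14 to 14.8) and 221 times (38.9 to 8824). For CXCL6 the counts were 5 against 0, for CXCL11 4 against 2 and for CXCL12 3 against 0. All 6 genes of the hepatocyte list were counted, and their sum was 7024 to 7416 counts in HG-NC and 13374, 13482 and 18582 in HG-OE replicates 1, 2 and 3. Most of it was SERPINA1, while ALB had 0 and 1 counts in HG-OE replicates 1 and 2. The epithelial list summed to 21131 to 23675 counts in HG-NC and 32355, 33468 and 51368 in HG-OE, and of its 4 tested genes KRT8 and KRT18 were higher while EPCAM (-0.56) and KRT19 (-0.55) were lower. The fibroblast list had 988 to 1021 and then 922, 940 and 1205 counts, with COL1A2 at 0 in every library but HG-OE replicate 3, which had 141. Of its 3 tested genes 1 was higher and 2 passed in neither direction. The higher one was PDGFRB, with 16, 12 and 8 counts in HG-NC and 65, 64 and 59 in HG-OE (adjusted p = 1.90e-05, edgeR). The proximal tubule list had 119 to 189 and then 167, 184 and 233 counts, the endothelial list 10 to 16 and then 40, 35 and 29, and the leukocyte list 172 to 216 and then 133, 106 and 137. PTPRC, which defines leukocytes, had 1 or 2 counts in each library. Of the 3 leukocyte genes tested, CSF1R (-1.05) and CD68 (-0.67) were lower at the adjusted p, and LYZ passed in neither direction. VWF, the 1 endothelial gene tested, was higher (1.73). Both hepatocyte genes tested, SERPINA1 (0.72) and FGB (3.41), were higher. FGB had 24, 29 and 55 counts in HG-NC and 124, 134 and 994 in HG-OE replicates 1, 2 and 3. The part of these cell types in the levels of these 6 CXC chemokines was not tested. CXCL8, CXCL2 and CXCL3 were not higher in that library, with 0.917, 0.866 and 0.861 times the other 2 HG-OE libraries per counted pair, and CXCL5 was at 1.02 times.

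Members on chromosome 4 were next set beside those elsewhere. The 5 tested genes on chromosome 4 had a median log2 fold change of -1.78, with 3 lower, 1 higher and 1 (CXCL10) that passed in neither direction. Elsewhere only CXCL16 was tested (-0.10), so 5 genes stand against 1 and the comparison carries no test. The median over all genes tested was 0.01.

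The stretch around the chromosome 4 genes was itself shifted. Of 65 other genes with a mean of at least 100 counts within 10 Mb, 44 were lower at an adjusted p under 0.05 and 3 were higher (edgeR). Over all 12357 genes with such a mean, 32.2% were lower and 29.7% were higher. The neighbours' median log2 fold change was -0.31. In HG-OE replicates 1, 2 and 3 singly, the median was -0.26, -0.33 and -0.34. Over all 456 such genes of chromosome 4, 269 were lower and 50 were higher at an adjusted p under 0.05 (edgeR). Their median was -0.26, the second lowest of 23 chromosomes after chromosome 2 (-0.28). Over all genes with such a mean the median was -0.01. The neighbours of CXCL16 on chromosome 17 had -0.12 and those of CXCL12 on chromosome 10 had 0.10. With the neighbours' median subtracted, the log2 fold changes were -1.47 for CXCL8, -1.54 for CXCL2, -2.03 for CXCL3 and 0.97 for CXCL5. All 4 kept their direction, and the first 3 remained past 2-fold. Whether the shift of the region had a part in the falls was not tested.

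Between and within 1 Mb of the chromosome 4 members, 21 other genes with such a mean were tested. At an adjusted p under 0.05 (edgeR) 16 were lower and 2 were higher, against the shares of 32.2% and 29.7% given above. Over chromosome 4 as a whole, 269 of 456 were lower and 50 were higher. EREG, a ligand of the EGF receptor, was lower in all 3 HG-OE libraries (220 to 232 CPM in HG-NC and 73.6 to 89.8 in HG-OE), with a log2 fold change of -1.47 (adjusted p = 6.16e-10, edgeR). RASSF6, a Ras association domain protein next to CXCL8, had a log2 fold change of -1.63 (adjusted p = 1.79e-07, edgeR), and AREG, another ligand of the EGF receptor, had -0.96 (adjusted p = 2.04e-07, edgeR). THAP6 (-0.99), RCHY1 (-0.68), MTHFD2L (-0.67) and CDKL2 (-0.50) also fell. The other 9 that fell (BTC, ANKRD17, G3BP2, USO1, SDAD1, NUP54, SCARB2, SHROOM3 and SEPTIN11) had log2 fold changes between -0.43 and -0.14. COX18, ODAPH and NAAA passed in neither direction. FAM47E-STBD1 rose by 0.24. AFP, the fetal liver gene, had a log2 fold change of 3.86 (adjusted p = 0.0124, edgeR) that rests on HG-OE replicate 3, with 1866 counts against 33 to 49 in the other libraries. ALB, which ends 319 kb before CXCL8, was not tested for its low counts outside that library.

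The protein-coding genes with the pattern most like that of CXCL8 over the 6 libraries were sought among 11557 candidates outside the family, by the Euclidean distance between log2 CPM differences from the HG-NC mean. RETREG1, a receptor for autophagy of the endoplasmic reticulum on chromosome 5, stood at a distance of 0.189, with 47.5, 43.9 and 46.6 CPM in HG-NC and 14.3, 12.3 and 11.2 CPM in HG-OE replicates 1, 2 and 3. EPB41L3 (0.329), RASSF6 (0.330) and SEPTIN4 (0.338) were also among the 5 closest. Within the family, CXCL2 stood at 0.165, CXCL3 at 1.00, CXCL16 at 2.95 and CXCL5 at 4.23.

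Few receptors of the CXC chemokines were detected. Of 10 CXC and atypical receptors, 2 were tested. CXCR4, the CXCL12 receptor, had 9, 7 and 10 counts in HG-NC and 13, 9 and 35 in HG-OE (log2 fold change 1.00, adjusted p = 0.110, edgeR), and without HG-OE replicate 3 it was not tested. CXCR5 was listed with 453, 518 and 503 counts in HG-NC and 382, 375 and 320 in HG-OE (log2 fold change -0.57, adjusted p = 1.00e-04, edgeR). It overlaps BCL9L, which had 3041 to 4535 counts, on the other strand over 3913 bases, so reads of the 2 genes cannot be told apart without the strand setting. CXCR1 and CXCR2 had at most 2 counts in any library.

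Of 8 proteases that shed or trim CXC chemokines, 7 were tested, with a median log2 fold change of 0.04. At the adjusted p 3 were lower and 2 were higher, against 25.9% of all genes tested in each direction. ADAM17 fell by 0.50 on the log2 scale (adjusted p = 3.26e-06, edgeR). The other sheddase of CXCL16, ADAM10, fell by 0.13 (adjusted p = 0.0235, edgeR), a call that was lost without HG-NC replicate 1, HG-NC replicate 3 or HG-OE replicate 2 and with limma, when 2 in place of 3 proteases were lower. CTSL, a lysosomal protease, fell by 0.29. DPP4, which trims CXCL10 and CXCL12, rose by 0.90 (1222, 1217 and 1272 counts in HG-NC and 2524, 2452 and 2558 in HG-OE, adjusted p = 5.17e-09, edgeR), and MMP9 rose by 0.59.

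All of 12 transcription factors and inhibitors that act on these promoters were tested, with a median of -0.31. At the adjusted p 8 were lower, where 25.9% of all genes tested were, and none was higher. All but FOS had a mean of at least 100 counts, and 32.2% of all genes with such a mean were lower. NFKB1, on chromosome 4, encodes an NF-κB subunit. It had 2749, 3077 and 3181 counts in HG-NC and 1705, 1687 and 1567 in HG-OE (log2 fold change -0.98, adjusted p = 3.25e-09, edgeR). REL (-0.92), RELB (-0.69) and NFKB2 (-0.39), further subunits, also fell, and so did NFKBIA (-0.57) and NFKBIZ (-0.46), inhibitors or cofactors that NF-κB itself induces. IRF1, an interferon regulatory factor, was slightly lower (-0.20). RELA, JUN, CEBPB and FOS did not pass, with log2 fold changes of 0.08, -0.07, 0.07 and 1.44. Without HG-OE replicate 3, CEBPB was higher (0.16, adjusted p = 3.42e-04, edgeR), FOS had 0.42 (adjusted p = 0.479, edgeR) and the count of lower genes was again 8.

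Of 8 interferon response genes, 6 were lower, with a median of -0.62. The share lower was 25.9% of all genes tested and 32.2% of those with a mean of at least 100 counts. IFIT2 (-1.45) and IFIT1 (-1.32) fell by over 2-fold, and IFIT3 (-0.87) and IRF7 (-0.74) also fell. ISG15 (-0.50, adjusted p = 0.0343, edgeR) and MX1 (-0.49, adjusted p = 0.0471, edgeR) passed narrowly. ISG15 had 531, 632 and 681 counts in HG-NC and 394, 337 and 682 in HG-OE, so that its groups overlapped through HG-OE replicate 3. OAS1 and IRF9 did not pass (-0.15 and 0.08). Without that library 7 of the 8 were lower, with ISG15 at -0.86 and MX1 at -0.77. OAS1 then passed, at -0.32 (adjusted p = 0.00663, edgeR). Without any 1 of the other 5 libraries 4 were lower, and the calls of ISG15 and MX1 were lost, as they were with DESeq2's Wald test and limma.

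Of 10 mRNA decay and stability factors, 6 were lower and 1 was higher, with a median of -0.19. The share of all genes tested was 25.9% in each direction. Of genes with a mean of at least 100 counts, 32.2% were lower and 29.7% higher. HNRNPD, which binds AU-rich RNA, lies among the chromosome 4 neighbours described above and had the largest fall (-0.68, adjusted p = 1.80e-08, edgeR). ZFP36L2 (-0.64) and ZFP36L1 (-0.38), relatives of the decay factor ZFP36, also fell. KHSRP, ELAVL1 and TIAL1 were lower by 0.21 or less. ZC3H12A, an endonuclease that cuts inflammatory mRNAs, rose by 0.23 (adjusted p = 0.00751, edgeR), a call that was lost with limma. ZFP36 itself had 214, 196 and 259 counts in HG-NC and 176, 194 and 256 in HG-OE, and its log2 fold change of -0.21 did not pass (adjusted p = 0.230, edgeR). TIA1 and MAPKAPK2 did not pass. Without HG-OE replicate 3, ZFP36 was lower (-0.38, adjusted p = 0.00726, edgeR) and MAPKAPK2 higher (0.10, adjusted p = 0.0228, edgeR), which gave 7 lower and 2 higher.

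**Figure D4:**
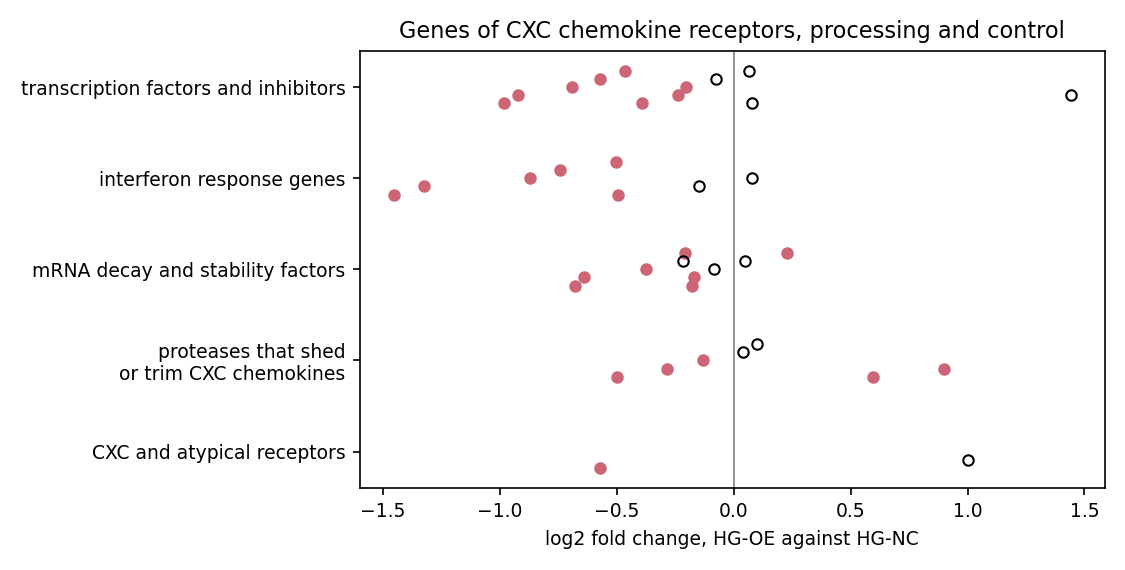
The log2 fold change in HG-OE against HG-NC of the tested genes of 5 lists, each point 1 gene, filled red at an adjusted p under 0.05 (edgeR) and open otherwise, spread vertically only for legibility. The filled points of the transcription factors and of the interferon response genes all lie below 0, and the rightmost open point is FOS at 1.44, which was at 0.42 without HG-OE replicate 3.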

How the data were processed

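RNA-seq of HK-2 cells in 30 mM glucose was available for 3 HG-NC and 3 HG-OE libraries, assigned from their titles. Per the methods the libraries were directional and of poly(A) RNA; the labels name a stranded kit for total RNA. After trimming, HISAT2 was used by the authors for alignment to GRCh38, and pairs mapped to 1 place were counted per gene. These counts were deposited without normalization. They also deposited FPKM values from the same counts. ComBat_seq is named in the methods, and whether it entered the deposited counts is not stated.

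Counts were normalized by TMM and tested with edgeR 4.0.16 in R 4.3.3, with its default filter on low counts (17142 of 31831 genes were kept). CPM use the TMM library sizes, and log2 CPM a prior count of 2. DESeq2 1.42.0 and limma 3.58.1 served as alternatives, limma on log2(FPKM + 1) and log2(FPKM + 0.1). Single values were compared by exact permutation tests, whose smallest p is 0.1. Positions, overlaps and 3′ regions are from GENCODE 44, promoters from RefSeq, GRCh38.p14. The edgeR, DESeq2 and limma steps were tested on simulated counts, with changes placed only in genes of high counts. The other steps were not tested in this way. The genes described are all members, lists of receptors, proteases, regulators and cell type markers, neighbours within 1 Mb and the 5 genes nearest to CXCL8 in pattern. The members and lists were chosen with earlier results of these data known. One gene of the regulator lists and one near CXCL8 in pattern are counted but not reported here by name. No protein sequences were used here.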

Additional observations from a re-analysis of the deposited data

How the results depend on the processing

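CXCL8, CXCL2 and CXCL3 were called lower under every alternative with a test, and CXCL5 was higher at an adjusted p under 0.05 under each. Their log2 fold changes ranged from -1.84 to -1.47, from -1.93 to -1.54, from -2.48 to -2.03 and from 0.62 to 0.97, the last bound of each from subtracting the neighbours' median. CXCL16 ranged from -0.63 (adjusted p = 3.74e-06, edgeR, without HG-OE replicate 3) to 0.14 with a library left out, turning positive without HG-OE replicate 1 or 2, and it was 0.019 with the neighbours' median subtracted. CXCL10 ranged from -0.105 (without HG-NC replicate 3) to 0.89 with a library left out and was -0.11 on log2(FPKM + 0.1). All genes called numbered 997, against 1539 with no filter, 617 with at least 10 counts in every library, and 144 and 138 on log2(FPKM + 1) with and without a filter, where the pseudocount shrinks low genes. With a library left out they numbered 989 to 1124. Same-numbered libraries showed no shared deviation in these counts (correlations of same-numbered deviations between -0.03 and 0.03). If ComBat_seq entered the counts, such deviations may have been removed. The correlations thus cannot tell whether same-numbered libraries were handled together. With the replicate block 990 genes were called, CXCL8 had -1.78, CXCL2 -1.85, CXCL3 -2.35, CXCL5 0.65 and CXCL16 -0.18, and no call of a CXC chemokine changed. Depth limits CXCL1, CXCL6, CXCL10, CXCL11 and CXCL12, each under 35 counts in every library except CXCL1 in HG-OE replicate 3.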
